A study of Homo sapiens with 18 samples.

Results

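SKBR3 cells were mapped by chromatin immunoprecipitation and sequencing (ChIP-seq) for FOXA1 and for TLE3, and the peak lists of these 2 factors were compared here. The 4 libraries were 2 replicates of FOXA1 and 2 of TLE3, out of 18 samples in the study, of which 12 had a peak list. They held 339878 of the 1134194 peaks analysed. A FOXA1 site was defined as a region, merged over the FOXA1 lists, in which each FOXA1 replicate had a peak, which gave 90520 sites from lists of 107598 and 116768 peaks. TLE3 was taken from replicate 1, with 21149 peaks. TLE3 replicate 2, with 94363 peaks, is given separately because the TLE3 lists disagreed, and for single genes it is given only in places. Whether that library differs in kind from replicate 1, or matches its label, was not tested, so its values are those of the library labelled TLE3 replicate 2.

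The study mapped both factors in the breast cancer lines MDA-MB-453, SKBR3 and T47D, and its remaining 6 samples are inputs that were not analysed here. SKBR3 is an established, ERBB2-amplified breast cancer line of epithelial origin, and no treatment or genetic change is given in the labels. The FOXA1 antibody came from Diagenode and the TLE3 antibody from Proteintech. Cells for TLE3 received an extra crosslinker, ChIP Cross-link Gold, ahead of formaldehyde, whereas FOXA1 cells are described with the kit's fixation alone, so factor, antibody and fixation cannot be told apart. The replicates are labelled biological, and how they were grown is not given, so the spread between them may be technical.

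FOXA1 is a forkhead pioneer factor. It binds its DNA motif in closed chromatin and helps other factors reach enhancers of luminal breast cells. TLE3 is a Groucho family corepressor that does not read DNA itself and is brought to chromatin by partner transcription factors, among them forkhead, RUNX, HES and TCF proteins.

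The promoters below are examples of sequences under TLE3 replicate 1 peaks at gene starts, shown for the motifs they hold. Each is the 250 bases before a start site, 5′ to 3′ along the gene, from RefSeq (GRCh38.p14), and is the reference sequence, not the sequence of SKBR3. They were picked by a rule set after the data had been seen, and at least 150 bp of the promoter window had to lie in a TLE3 replicate 1 peak. For the first 3, the rule also required a FOXA1 site and a forkhead motif in these 250 bases, and the best ranked peaks that met it were taken. The motif is therefore no finding here: most promoters with both factors hold none, and the TLE3 peak over the start of HES1, at percentile 98.9 and at a FOXA1 site, was passed over. Capitals mark the motif, TGTTTAC or TGTTTGC on either strand. RBPJ, the DNA-binding protein of NOTCH signalling, is at chr4:26319496-26319745 on the plus strand, PRRT1B is at chr9:131545273-131545522 on the plus strand, and TXNIP, an inhibitor of thioredoxin, is at chr1:145996580-145996829 on the minus strand.
RBPJ: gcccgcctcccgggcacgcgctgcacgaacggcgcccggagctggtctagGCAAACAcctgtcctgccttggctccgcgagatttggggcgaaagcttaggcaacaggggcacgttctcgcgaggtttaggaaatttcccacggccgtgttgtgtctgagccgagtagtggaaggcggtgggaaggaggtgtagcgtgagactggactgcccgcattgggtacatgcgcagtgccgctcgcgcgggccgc
PRRT1B: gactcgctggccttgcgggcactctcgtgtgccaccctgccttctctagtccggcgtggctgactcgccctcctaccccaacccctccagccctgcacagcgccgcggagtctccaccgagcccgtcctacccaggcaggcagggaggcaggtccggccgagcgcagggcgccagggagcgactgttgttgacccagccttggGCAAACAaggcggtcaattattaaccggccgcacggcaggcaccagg
TXNIP: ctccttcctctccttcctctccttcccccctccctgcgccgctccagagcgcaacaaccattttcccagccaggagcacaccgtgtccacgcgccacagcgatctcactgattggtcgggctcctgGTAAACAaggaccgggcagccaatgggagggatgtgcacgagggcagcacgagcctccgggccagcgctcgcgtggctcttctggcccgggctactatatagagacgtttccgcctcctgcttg
Their TLE3 replicate 1 peaks stood at percentile 99.9, 97.9 and 90.1 of the list by the authors' score, where 100 is the highest. Counted from the start site, the motif began at -200 in RBPJ, -47 in PRRT1B and -124 in TXNIP.

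The next 2 promoters carry the best ranked TLE3 replicate 1 peaks that overlap no FOXA1 site. Capitals here mark GGGCGG on either strand, the core of the SP factor motif. MYRIP, a linker of melanosomes and myosin, is at chr3:39809359-39809608 on the plus strand, and BNIP3, a mitochondrial mitophagy receptor, is at chr10:131981924-131982173 on the minus strand.
MYRIP: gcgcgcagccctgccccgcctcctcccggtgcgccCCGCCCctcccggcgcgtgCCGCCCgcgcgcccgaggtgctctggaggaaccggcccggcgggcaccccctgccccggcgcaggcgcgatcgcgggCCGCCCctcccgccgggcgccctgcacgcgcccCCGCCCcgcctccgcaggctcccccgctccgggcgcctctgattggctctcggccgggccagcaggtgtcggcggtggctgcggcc
BNIP3: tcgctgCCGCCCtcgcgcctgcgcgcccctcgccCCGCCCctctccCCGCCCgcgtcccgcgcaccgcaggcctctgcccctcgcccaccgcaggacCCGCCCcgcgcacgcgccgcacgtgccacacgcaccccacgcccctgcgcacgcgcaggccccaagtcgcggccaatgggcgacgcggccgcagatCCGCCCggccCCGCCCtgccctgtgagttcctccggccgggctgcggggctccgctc
Neither held a forkhead match in its window. MYRIP had 4 SP matches and a G+C content of 84.4%, and BNIP3 had 6 and 81.6%, whereas RBPJ had 65.2%, PRRT1B 68.4% and TXNIP 63.6%.

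The FOXA1 lists were alike and the TLE3 lists were not. Median peak width was 432 and 417 bp in FOXA1 replicates 1 and 2, 326 bp in TLE3 replicate 1 and 629 bp in TLE3 replicate 2. Peaks covered 56.1, 59.5, 7.77 and 75.4 Mb in that order. Of FOXA1 replicate 1 peaks 85.3% overlapped replicate 2, and 78.5% did so in the reverse direction. Of TLE3 replicate 1 peaks 33.9% overlapped replicate 2, and 7.54% of replicate 2 peaks overlapped replicate 1. The files hold no read counts, so the depth behind each list is unknown. All 4 libraries had 0 peaks inside CDH1, the epithelial cadherin gene that SKBR3 is known to have lost in part, while FOXA1 lists of the other lines had 13 to 16 there and TLE3 lists 2 to 12. Within 500 kb of ERBB2 the SKBR3 lists held 92, 94, 26 and 111 peaks. As log2 of the ratio of geometric means, TLE3 lists were shorter than FOXA1 lists by a value of -1.33, with an exact two-sided permutation p of 0.333, the smallest that 2 libraries against 2 can give.

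Nearly all TLE3 replicate 1 peaks lay on FOXA1 sites, and they took up a minority of those sites. Of the 21149 peaks, 19764 (93.5%, 95% Wilson interval 93.1 to 93.8%) overlapped a FOXA1 site, where overlap means at least 1 bp and intervals cover counting error only. Overlap was 93.8% with the peaks of FOXA1 replicate 1 and 95.1% with those of replicate 2. Of the 90520 FOXA1 sites, 18937 (20.9%, 20.7 to 21.2%) carried TLE3 replicate 1. TLE3 replicate 2 behaved differently from its own side: 20460 of its 94363 peaks (21.7%) were at a FOXA1 site. From the FOXA1 side its share was near that of replicate 1, with 20290 sites (22.4%, 22.1 to 22.7%). Both TLE3 lists marked 6701 sites (7.40%) and neither marked 57994 (64.1%). Replicate 2 was present at 35.4% of sites with replicate 1 and at 19.0% of sites without it. Cutting every list to the same length by score changed both overlaps, to 60.6% of FOXA1 sites with TLE3 and 58.2% of TLE3 peaks at FOXA1 sites.

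TLE3 replicate 1 peaks were centred on FOXA1. Where a TLE3 peak met a FOXA1 site, the centres were a median of 68 bp apart in replicate 1 and 180 bp in replicate 2, and 62.3% and 31.3% of them were within 100 bp. At the exact centre of FOXA1 sites, both TLE3 lists covered 16.9% of sites. At 1 kb upstream and downstream, cover had fallen to 1.06% and 1.09% in replicate 1 and to 5.45% and 5.74% in replicate 2. Of the 1385 TLE3 replicate 1 peaks that touched no FOXA1 site, 291 (21.01%) still lay within 1 kb of one, and 477 (34.4%) overlapped a peak of 1 FOXA1 replicate. Most sites with TLE3 had a single peak of it, and 793 (4.19%) had 2 or more.

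**Figure D1:**
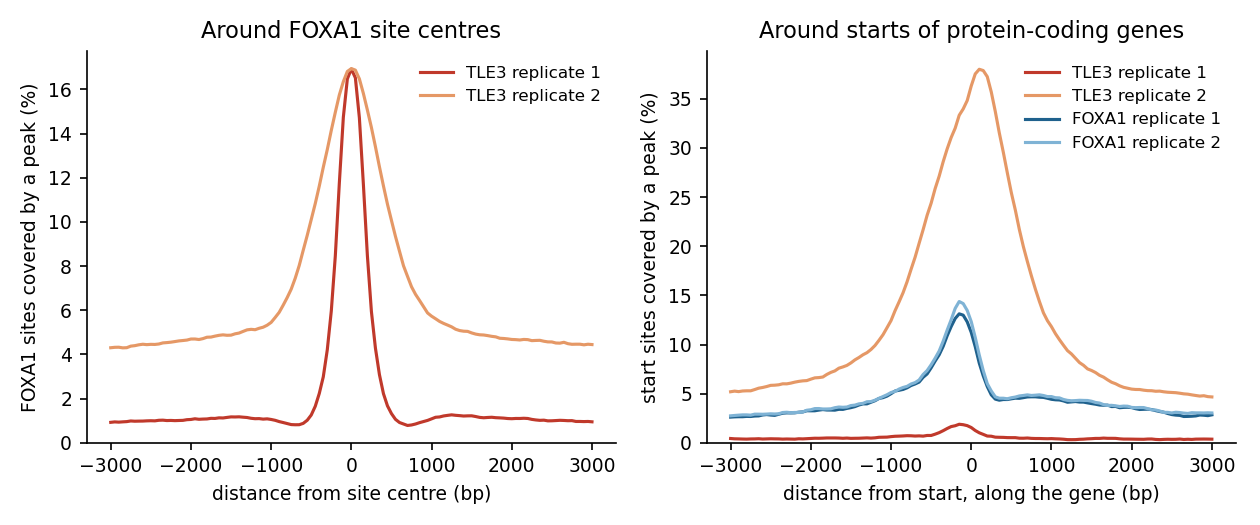
Share of positions covered by a peak (%, vertical axis) against distance in bp, around the centres of 90520 FOXA1 sites (left) and around 22012 starts of protein-coding genes (right), with 1 line per library. Both TLE3 lists reach 16.9% at FOXA1 centres, while at starts TLE3 replicate 2 covers 36.3% and TLE3 replicate 1 covers 1.56%. Cover is not scaled to the size of the lists, which is 75.4 Mb in TLE3 replicate 2 and 7.77 Mb in TLE3 replicate 1.

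TLE3 replicate 1 sat at the wide, high-scoring FOXA1 sites. FOXA1 sites with it had a median width of 862 bp and those without it 478 bp. In FOXA1 replicate 1 the median peak width was 781 bp with TLE3 and 397 bp without, and in FOXA1 replicate 2 it was 795 and 383 bp. The difference was 398 ± 19.8 bp (SD, n = 2 FOXA1 libraries). Both libraries were split by the same TLE3 list, so this SD holds no spread between TLE3 replicates. Split by TLE3 replicate 2, the differences were 92 and 87 bp. A FOXA1 peak with TLE3 replicate 1 outscored a FOXA1 peak without it with a probability of 0.860 in replicate 1 and 0.877 in replicate 2 (mean 0.868 ± 0.0118, SD, n = 2), where 0.5 means no difference. The deposited score belongs to each peak, and its quantity is not named, so it was used within a list only. Wider peaks also offer more room for an overlap, and among peaks of similar width (20 classes) the probability was 0.664 and 0.685. Widths still vary within a class, and their part in the remaining difference was not tested. With TLE3 replicate 2 as the partner, the probabilities were 0.584 and 0.574, and 0.488 and 0.477 among peaks of similar width.

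When FOXA1 sites were put into 10 equal groups by rank of their score, the share with TLE3 replicate 1 ran from 2.99% in the lowest group to 47.04% in the next to highest and 77.3% in the highest. The shares with replicate 2 were 20.2% in the lowest group and 37.5% in the highest. By width, replicate 1 ran from 1.48% in the narrowest group to 68.2% in the widest, and replicate 2 from 13.8% to 41.9%. Of the 100 highest ranked FOXA1 sites, 98 had TLE3 replicate 1 and 49 had replicate 2. Of the 1000 highest, 959 had replicate 1 and 469 had replicate 2.

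**Figure D2:**
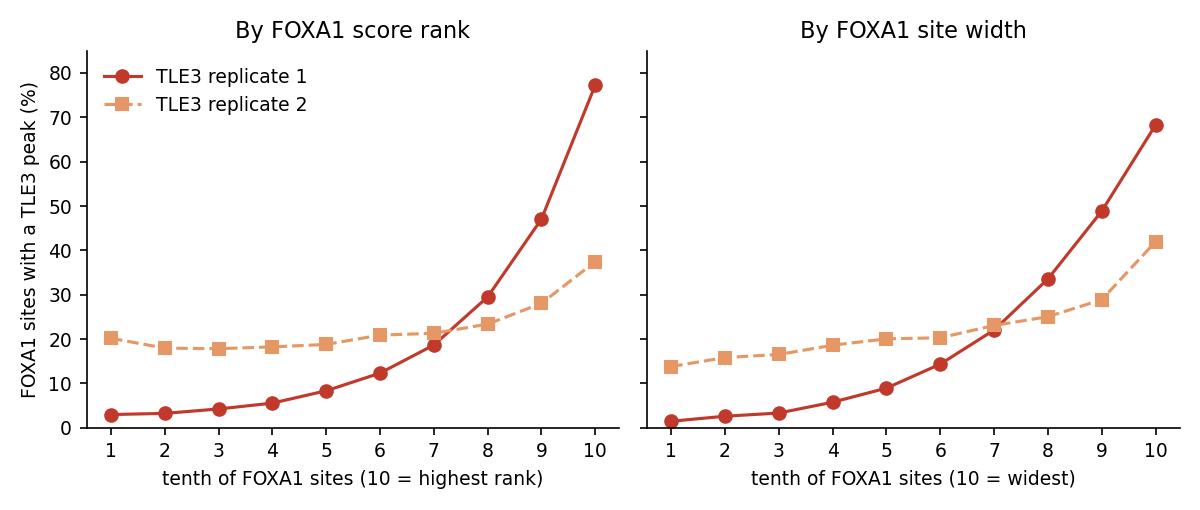
Share of FOXA1 sites with a TLE3 peak (%, vertical axis) in 10 equal groups of sites ordered by score rank (left) or width (right), for TLE3 replicate 1 (circles) and replicate 2 (squares). Replicate 1 goes from 2.99% to 77.3% along the rank, and replicate 2 from 20.2% to 37.5%.

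The relation was seen from the TLE3 side for replicate 1. Its lowest ranked group of 10 had 83.4% of peaks at FOXA1 sites and its highest 98.9%. Peaks at FOXA1 were 332 bp wide in the median against 256 bp for the rest, and outscored the rest with a probability of 0.726 (0.632 among peaks of similar width). In TLE3 replicate 2 the probability was 0.470, below even, and 0.374 among peaks of similar width. There the share at FOXA1 was 30.9% in the lowest ranked group, 16.5% in group 6, 24.6% in group 9 and 22.6% in the highest, with no steady course along the rank. Its overlap with replicate 1 was 15.7% in its lowest group and 3.71% in its highest. In replicate 1 the overlap with replicate 2 was 30.8% in the lowest group and 48.5% in the highest.

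The highest ranked FOXA1 sites show these classes at single loci. The best ranked site with TLE3 was in CAB39, a scaffold of the LKB1 kinase complex, at chr2:230737441-230740430 (hg38), 25388 bp after a start site, and it had both factors in MDA-MB-453 and T47D as well. The next lay in DOP1B, near SLC22A15, a membrane transporter, in HERC6, and near LOC124904276. All 5 had TLE3 in T47D and 4 had it in MDA-MB-453. The best ranked site without TLE3 replicate 1 was at chr20:50366318-50367419, with PTPN1, a tyrosine phosphatase of insulin signalling, as its nearest coding gene. It had no TLE3 replicate 2 peak and no TLE3 site in the other lines, although both had FOXA1 there. The others were in or nearest to MAPKAP1, a subunit of mTORC2, GADD45G, a stress response gene, PAK2, a kinase, and CDC42EP3, a CDC42 effector. These 4 had a TLE3 site in T47D, and that at PAK2 also had one in MDA-MB-453. TLE3 replicate 2 had a peak at the sites of GADD45G and PAK2, and none at those of MAPKAP1 and CDC42EP3. The sites of PTPN1, GADD45G and CDC42EP3 lay outside these genes, 143514, 393683 and 113748 bp from the nearer gene end.

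The best ranked TLE3 replicate 1 peaks without a FOXA1 site lay in HEATR4, MYRIP, near BNIP3, in CHTF18, a clamp loader subunit, and in TP73, a member of the p53 family. The HEATR4 peak did overlap a peak of FOXA1 replicate 1 alone. The peaks at MYRIP and BNIP3 were centred at -157 and -113 bp from a start site, where a minus means before the start. All 5 overlapped a TLE3 site of T47D, and 4, all but CHTF18, one of MDA-MB-453. TLE3 replicate 2 had a peak at 4 of the 5, TP73 being the exception.

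The lists also differed in how close they came to genes. Taking gene starts and gene ends together as gene ends, the share of peaks centred no more than 1 kb from one was 10.6% and 10.5% in FOXA1 replicates 1 and 2, 10.98% in TLE3 replicate 1 and 19.7% in TLE3 replicate 2. TLE3 minus FOXA1 was 4.81 percentage points with an exact two-sided permutation p of 0.333, the smallest possible, and 0.440 points without TLE3 replicate 2. Within 1 kb of a start site were 5.99%, 5.98%, 6.17% and 13.1% of peaks, and the median distance to a gene end was 11972, 12190, 11186 and 7277 bp. The share of peaks inside protein-coding genes was 49.3%, 49.0%, 49.5% and 52.4%, so 3 libraries were close to each other in each measure and TLE3 replicate 2 stood apart. Exons were not used here.

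At the starts of protein-coding genes, TLE3 replicate 2 covered 36.3% of 22012 positions, FOXA1 replicates 1 and 2 covered 11.2% and 12.3%, and TLE3 replicate 1 covered 1.56%. Such cover grows with the size of a list, and these lists cover 75.4, 56.1, 59.5 and 7.77 Mb in that order. The low cover of TLE3 replicate 1 therefore does not mean that its peaks avoid starts. Cover was highest 100 bp after the start in TLE3 replicate 2 (38.0%) and before the start in the other 3, where it reached 13.1%, 14.4% and 1.89%. At 3 kb before the start it was 5.20% in TLE3 replicate 2 and 2.62%, 2.75% and 0.441% in the others. By chromosome, the share of FOXA1 sites with TLE3 replicate 2 ran from 16.3% on chromosome 18 to 40.2% on chromosome 19. These chromosomes hold 13.8 and 46.1 annotated genes of all kinds per Mb. With replicate 1 the range was 18.6% on chromosome X to 24.7% on chromosome 22.

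FOXA1 sites with TLE3 replicate 1 lay less often within 1 kb of a gene end than the rest, although their distances were similar in the median, and TLE3 peaks without FOXA1 lay there more often. Within 1 kb of a gene end were 9.39% of FOXA1 sites with TLE3 replicate 1 and 10.8% of those without, and within 1 kb of a start 4.59% and 6.29%. The median distance to a gene end was 11790 bp with TLE3 and 12099 bp without, and 13.9% and 15.1% were over 50 kb away. In the FOXA1 libraries the pairs were 9.47% and 10.8%, and 9.62% and 10.7%. With TLE3 replicate 2 as the partner the order turned, to 21.3% and 7.75%, and 21.6% and 7.64%. FOXA1 sites with replicate 1 alone were near a gene end in 6.63% of cases, those with replicate 2 alone in 24.1%, those with both in 14.4% and those with neither in 7.70%. Of TLE3 replicate 1 peaks, 34.4% without FOXA1 and 9.34% at FOXA1 were within 1 kb of a gene end, and 27.4% and 4.66% within 1 kb of a start. Peaks of replicate 1 without FOXA1 were also found in replicate 2 more often, at 51.7% (716 of 1385) against 32.7% (6459 of 19764). FOXA1 sites with TLE3 replicate 1 had a closer neighbour: the next FOXA1 site, with or without TLE3, was a median of 3741 bp away, against 5533 bp for sites without.

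The other lines give libraries that the choice of SKBR3 sites did not use. SKBR3 FOXA1 sites with TLE3 replicate 1 were TLE3 sites in MDA-MB-453 in 42.4% of cases and in T47D in 50.9%, and sites without it in 9.59% and 12.8%. FOXA1 itself was found at 76.8% and 71.6% of sites with TLE3 and at 58.9% and 57.8% of sites without. Sites with TLE3 replicate 2 alone were TLE3 sites in MDA-MB-453 in 6.39% and in T47D in 16.6% of cases, beside 10.3% and 11.97% for sites with neither. Sites with replicate 1 alone gave 42.7% and 47.4%, close to the values of all sites with replicate 1. TLE3 replicate 2 peaks without FOXA1, 73903 in all, overlapped TLE3 sites in 0.541% of cases in MDA-MB-453 and 4.06% in T47D. TLE3 replicate 1 peaks without FOXA1 did so in 8.88% and 38.3%, beside 41.6% and 50.3% of those at FOXA1. FOXA1 sites of MDA-MB-453 covered 27.4% of them and those of T47D 16.5%.

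**Figure D3:**
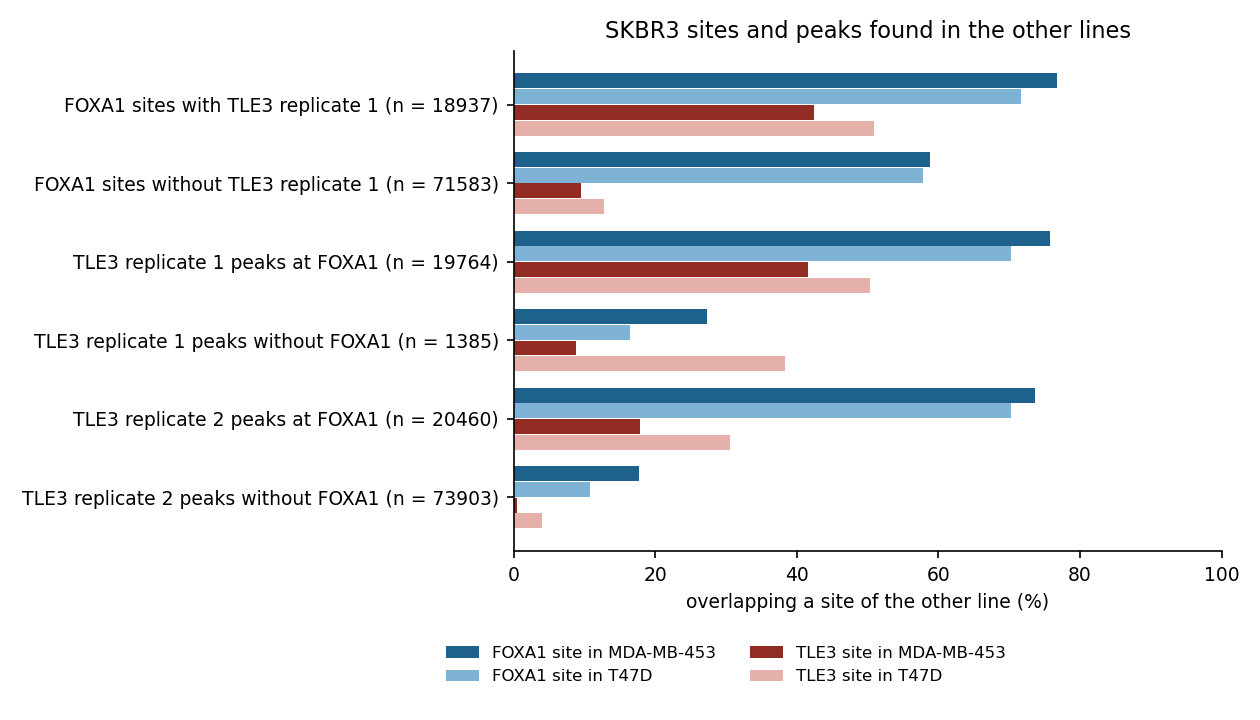
Share of SKBR3 sites or peaks (%, horizontal axis) that overlap a FOXA1 site or a TLE3 site of MDA-MB-453 or T47D, for 6 classes with their numbers. FOXA1 sites with TLE3 replicate 1 are TLE3 sites in 42.4% and 50.9% of cases, against 9.59% and 12.8% of sites without it.

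The rank of the FOXA1 site moved with this comparison, and within groups of similar rank the FOXA1 part of it changed. In all 10 rank groups, sites with TLE3 replicate 1 were more often TLE3 sites of the other lines, by 9.38 to 40.0 percentage points in MDA-MB-453 and by 20.3 to 34.3 in T47D. FOXA1 in MDA-MB-453 was more frequent at sites with TLE3 in 2 of 10 groups, with differences of -8.05 to 4.84 points. FOXA1 in T47D was more frequent in 0 of 10 groups, with differences of -18.8 to -2.01 points. In the highest group, TLE3 in T47D was at 66.9% of 6993 sites with TLE3 and 32.6% of 2059 sites without, while FOXA1 in T47D was at 92.3% and 94.3%. Over all sites, FOXA1 in the other lines was more frequent at sites with TLE3, and within groups of similar rank this was absent or reversed in most comparisons. Width was not held equal in the rank groups. Sites with TLE3 were wider in every group, with medians of 416 against 374 bp in the lowest and 1072 against 867 bp in the highest. The part of width, or of rank within a group, in these differences was not tested.

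Most protein-coding genes had FOXA1 in reach and a smaller share had TLE3. Within 50 kb of either gene end, 89.8% of 19974 protein-coding genes had a FOXA1 site, 57.4% a TLE3 replicate 1 peak and 96.5% a TLE3 replicate 2 peak. A FOXA1 site carrying TLE3 replicate 1 was near 53.6% of them, and a TLE3 replicate 1 peak without FOXA1 near 13.5%. Of the genes with a FOXA1 site, 63.5% had TLE3 replicate 1. Replicate 2 therefore separates hardly any genes. For the genes named below, TLE3 without a replicate number means replicate 1. Both FOXA1 and TLE3 replicate 1 were near 11398 genes, FOXA1 alone near 6547, TLE3 replicate 1 alone near 58 and neither near 1971. Median gene length was 32.2, 20.5, 11.8 and 9.09 kb in these classes, and long genes have more room for sites. The share of genes with TLE3 replicate 1 was 16.004% where there was 1 FOXA1 site, 68.0% with 4 to 7 and 98.8% with 16 to 116. The genes with most FOXA1 sites carrying TLE3 were KCNMA1, a potassium channel, with 28 of 92 sites, RAD51B, a recombination protein, with 25 of 116, and AUTS2, a Polycomb cofactor, with 23 of 86. GSE1 had 21 of 53 and FTO, an RNA demethylase, 20 of 51.

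Luminal identity genes were near both factors. All 22 had a FOXA1 site and 21 had a TLE3 replicate 1 peak, where the background is 89.8% and 57.4% of coding genes. They had a median of 14 FOXA1 sites each, against 4 for all coding genes, and 24.9% of their sites carried TLE3, against 21.1%. The FOXA1 gene itself had 22 FOXA1 sites, 6 with TLE3, and its best TLE3 peak (chr14:37546755-37547501, percentile 98.9) lay 48121 bp past the start. GATA3, a luminal transcription factor, had 10 FOXA1 sites, 3 with TLE3, and its best TLE3 peak was at chr10:8050553-8050978, at -470 bp from a start site. KRT8, a luminal keratin, had 18 sites, 5 with TLE3. ESRP1, an epithelial splicing factor, was the member without a TLE3 replicate 1 peak, with 3 FOXA1 sites and 7 TLE3 replicate 2 peaks. TRPS1, a GATA-type repressor, had 52 FOXA1 sites and 4 with TLE3.

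Basal identity genes, which mark the other epithelial layer of the breast, were near or somewhat below the background. A FOXA1 site was near 12 of 14 (85.7%, against 89.8% of coding genes). A TLE3 replicate 1 peak was near 7 (50%, against 57.4%). CDH3, a member that lies beside CDH1 on chromosome 16, had 0 FOXA1 sites and 0 peaks of either TLE3 replicate. Whether CDH3 is lost in SKBR3 was not tested. KRT5, a basal keratin, had 4 FOXA1 sites and no TLE3 replicate 1 peak, and KRT17 and KRT6A also had none. The basal keratin KRT14 differed, with 10 FOXA1 sites, 4 of them with TLE3. However, its best TLE3 replicate 1 peak (chr17:41538854-41539584, percentile 79.5) was also the best one of the luminal keratin KRT19. Sites within 50 kb of KRT14 can thus be shared with KRT19. TP63, the basal transcription factor, had 52 FOXA1 sites, 15 with TLE3. SOX10, a factor of basal-like and neural crest cells, had 4 sites, 3 with TLE3, and a TLE3 peak at percentile 99.7 (chr22:37943358-37944071). Of the FOXA1 sites near basal genes 27.2% (31 of 114) carried TLE3 replicate 1, beside 24.9% for luminal genes and 21.1% for all coding genes. TP63 alone gave 15 of these 31 sites. TLE3 replicate 1 was also near 12 of 18 genes of other tissues (66.7%) and 9 of 15 housekeeping genes (60%), beside 57.4% of all coding genes. A peak within 50 kb therefore does not set basal genes apart from other genes.

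The ERBB2 region is dense in both factors. Of 15 amplicon genes, 15 had a FOXA1 site and 14 a TLE3 replicate 1 peak, beside 89.8% and 57.4% of all coding genes. But these genes are neighbours and share 48 FOXA1 sites. Of these sites 33.3% had TLE3 replicate 1 and 68.8% replicate 2, beside 21.1% and 25.2% of the sites near all coding genes. ERBB2, the receptor tyrosine kinase amplified in this line, had 23 FOXA1 sites, 12 with TLE3. Inside the gene lay 10 and 10 FOXA1 peaks, 4 TLE3 replicate 1 peaks and 10 TLE3 replicate 2 peaks. The 4 replicate 1 peaks were at chr17:39702636-39703876, chr17:39704608-39705070, chr17:39705794-39706370 and chr17:39723441-39724152, at percentiles 96.1, 65.5, 84.3 and 66.8. Each of them overlapped a FOXA1 site and a replicate 2 peak, and 1 replicate 2 peak of 4334 bp spanned the first 3. Within 500 kb of ERBB2, MDA-MB-453 had 60 FOXA1 sites, 20 and 12 of them with TLE3 replicates 1 and 2, and T47D had 52, with 21 and 32. SKBR3 had 80, with 23 and 51. The number of copies of this region moves with the line, and its part in these counts was not tested.

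Other members of the receptor family were covered unevenly. All 14 ERBB receptors and ligands had a FOXA1 site and 9 had TLE3 replicate 1, near the background. EGFR, the first member of the family, had a TLE3 peak at percentile 99.8 (chr7:54987678-54989005), at -30675 bp from the start, and 5 of 26 FOXA1 sites with TLE3. ERBB3, the kinase-poor partner of ERBB2, had 8 FOXA1 sites and no TLE3 replicate 1 peak, and the ligands TGFA and HBEGF had 6 and 5 and none. Among 13 genes of MAP kinase feedback, 9 (69.2%) had TLE3 replicate 1, beside 57.4% of all coding genes. DUSP4, a phosphatase of MAP kinases, and SPRED2, an inhibitor of the pathway, had TLE3 replicate 1 peaks at percentile 98.8 each. DUSP6 had 11 FOXA1 sites, the best ranked at -321 bp from the start, and no TLE3 replicate 1 peak. ETV5 and SPRY2 had no TLE3 replicate 1 peak either. TLE3 replicate 2 had 5 peaks near DUSP6, 7 near ETV5 and 6 near SPRY2.

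Of 14 genes of TLE3's own family and other corepressors, 13 had FOXA1 and 9 (64.3%) TLE3 replicate 1, near the 89.8% and 57.4% of all coding genes. TLE1 had 26 FOXA1 sites, 10 with TLE3, and a TLE3 peak at percentile 95.7 inside the gene (chr9:81685732-81686661), 3350 bp after the start. TLE4 had a peak at percentile 99.3 (chr9:79668030-79668586). The TLE3 gene had 19 FOXA1 sites, 3 with TLE3, and its best TLE3 peak lay at -1856 bp from the start. TLE5, the shortened family member, and the deacetylase gene HDAC3 had 7 and 6 FOXA1 sites and no TLE3 replicate 1 peak. Of RUNX, AP-2 and GRHL factors, 10 of 11 had TLE3, a share above that of all coding genes, with a median of 12 FOXA1 sites each. RUNX1 had 9 of 28 sites with TLE3 and RUNX3 had 0 of 6. Of the forkhead factors 7 of 12 (58.3%, near the 57.4% of all coding genes) had TLE3 replicate 1. FOXP1, a forkhead repressor, had it at 9 of 53 sites, and FOXA2 had no TLE3 replicate 1 peak.

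NOTCH and HES genes include the strongest TLE3 peak of any list. HES1, the repressor that recruits Groucho proteins and is the classical NOTCH target, had 20 FOXA1 sites, 10 with TLE3. Its best TLE3 peak stood at percentile 99.9 (chr3:194134046-194135427), at -1411 bp from the start, and within 5 kb of the gene were 10 and 10 FOXA1 peaks, 5 TLE3 replicate 1 peaks and 6 TLE3 replicate 2 peaks. TLE3 replicate 2 ranked its best peak there at percentile 73.9. BHLHE40, a related repressor, and DLL4, a NOTCH ligand, had TLE3 peaks at percentiles 98.998 and 98.941. NOTCH1, NOTCH4 and DLL1 had FOXA1 sites and no TLE3 replicate 1 peak, and in all 12 of 16 members (75%) had one, where the background is 57.4%.

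The remaining lists had TLE3 replicate 1 near 12 of 16 TCF and WNT genes, 12 of 17 genes of epithelial-mesenchymal transition and TGF-beta, 12 of 14 androgen receptor and apocrine genes and 9 of 14 lipid synthesis genes. The share over all coding genes is 57.4%, and that of lipid synthesis genes, 64.3%, is near it. TGFB2, a TGF-beta ligand, had 8 of 24 FOXA1 sites with TLE3, and SMAD3, the mediator of its signal, 8 of 28. TGFBR1, a receptor, had 16 FOXA1 sites, no TLE3 replicate 1 peak and 7 TLE3 replicate 2 peaks. TMPRSS2, an androgen-regulated protease, had 6 of 9 sites with TLE3 replicate 1. FKBP5, also androgen-regulated, had 5 FOXA1 sites, no TLE3 replicate 1 peak and 18 TLE3 replicate 2 peaks. ACLY, which makes acetyl-CoA for lipid synthesis, had a TLE3 replicate 1 peak at percentile 98.2. The sterol genes HMGCS1 and INSIG1 had no replicate 1 peak, and 3 and 7 TLE3 replicate 2 peaks. ESR1, the estrogen receptor gene, had 5 of 27 FOXA1 sites with TLE3.

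**Figure D4:**
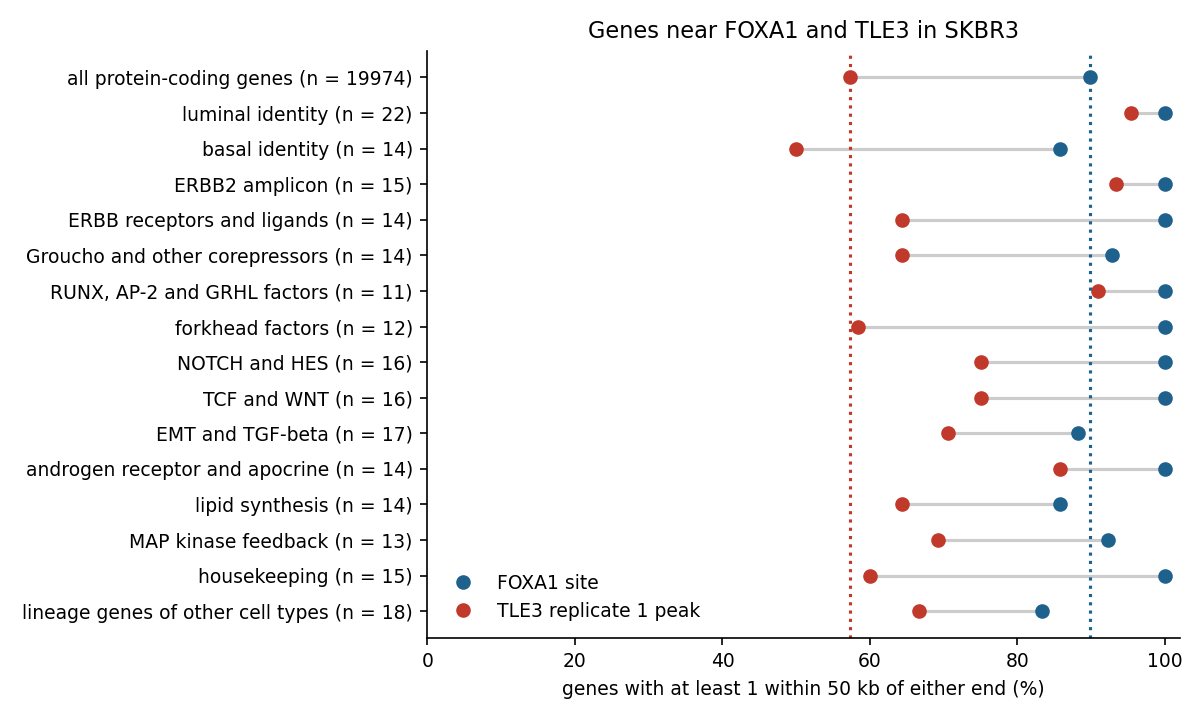
Share of the genes in each list (%, horizontal axis) with a FOXA1 site (blue) or a TLE3 replicate 1 peak (red) within 50 kb of either gene end; dotted lines mark all 19974 protein-coding genes at 89.8% and 57.4%. Luminal genes stand at 21 of 22 for TLE3 and basal genes at 7 of 14.

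These counts depend on reach. With a window of 10 kb, 16 of 22 luminal genes had TLE3 replicate 1, against 34.4% of coding genes, and with the nearest gene alone 17 did, against 37.2%. Luminal genes had more FOXA1 sites than most genes, and the share of genes with TLE3 rose with that number, so the list's count was not separated from it.

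Promoter sequences differed between the classes. Of 22132 windows, from 250 bp before to 50 bp after a start of a coding gene, 320 overlapped both a FOXA1 site and TLE3 replicate 1, 2891 FOXA1 alone, 295 TLE3 replicate 1 alone and 18626 neither. A forkhead motif, TGTTTAC or TGTTTGC on either strand, was in 16.6% (53), 13.8% (399), 1.36% (4) and 4.82% (897) of them, and in 6.11% of all windows. The AP-1 motif TGANTCA was in 13.1%, 6.36%, 4.07% and 6.03%, with 6.15% of all windows. At promoters with TLE3 and no FOXA1, the SP core GGGCGG was in 84.1% against 56.3% of all windows, the AP-2 motif GCCNNNGGC in 49.8% against 27.4%, and the E-box CACGTG in 19.7% against 8.34%. In windows with both factors these shares were 59.4%, 35.6% and 12.5%, and with FOXA1 alone 61.4%, 23.3% and 10.3%. The median G+C content was 73.3% in the class with TLE3 alone and 64.0%, 60.7% and 62.7% in the other 3. Its part in these motif shares was not tested. TLE3 replicate 2 had a peak at 87.8% of the promoters with TLE3 replicate 1 alone, 75% of those with both, 60.7% of those with FOXA1 alone and 40.0% of those with neither. The CCAAT motif of NFY was in 24.7% of the TLE3-alone class and 34.6% of all windows, RUNX (TGTGGT) in 6.10% and 11.3%, and TCF (CTTTGAT) in 0.678% and 1.99%. The printed promoters of MYRIP and BNIP3, with their runs of GGGCGG, belong to the TLE3-alone class, and RBPJ, PRRT1B and TXNIP to the class with both.

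**Figure D5:**
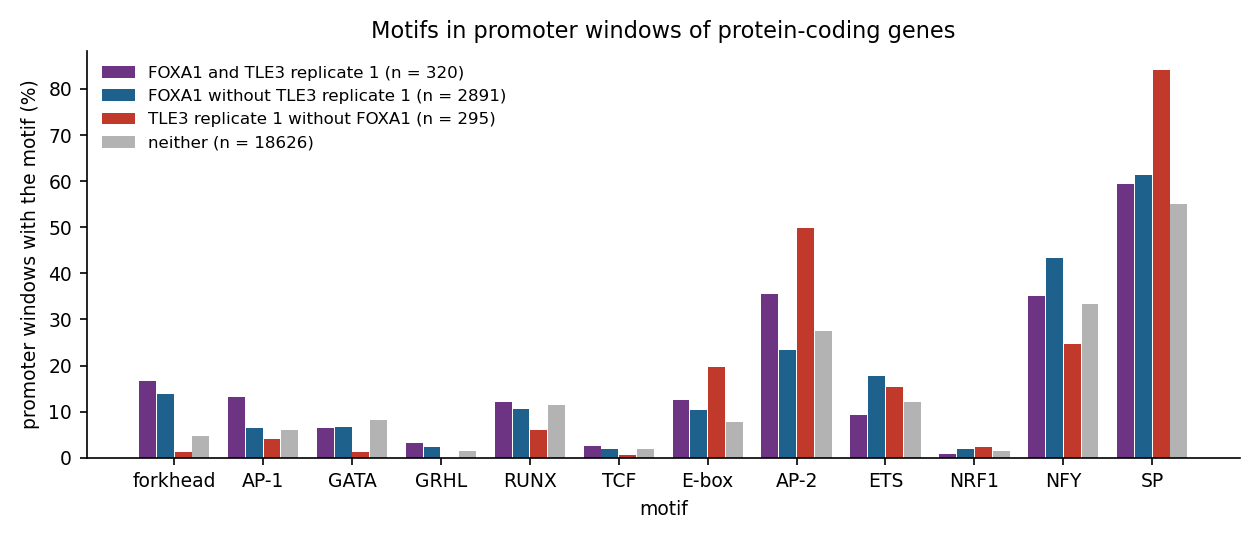
Share of promoter windows (%, vertical axis) with each of 12 motifs, in 4 classes of windows by overlap with a FOXA1 site and a TLE3 replicate 1 peak. The forkhead motif is in 16.6% and 13.8% of windows with FOXA1 and in 1.36% of those with TLE3 alone, where the SP motif is in 84.1%.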

How the data were processed

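The authors deposited 1 peak list per library, with positions and a score per peak. Tools named by the submitters' processing notes are MACS2, SAMtools, BWA 0.7.5a and Trim Galore, on hg38. What the score measures, the control and the settings were not given in the sources used here, so scores ranked peaks within a list only. Of the 4 lists, 6 peaks outside chromosomes 1 to 22 and X were left out. The lists give no summits, so centres stand for positions.

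Gene ends, start sites and promoter sequences came from RefSeq tables of GRCh38.p14 (59098 genes). No genome was used, so motifs were searched in promoters and not in peaks. All 225 entries of 15 gene lists matched. Groups came from the sample titles. Factors were compared over libraries by exact permutation, and other values carry no test, since peaks and genes are not replicates. The members, lists and settings were chosen with earlier results of these data known. Named genes are the 3 list members with the best ranked TLE3 replicate 1 peak, up to 3 with FOXA1 and without it, the genes at the 5 best ranked sites of each class, the 10 with most shared sites, and FOXA1, TLE3, ERBB2, GRB7, GATA3, ESR1, KRT5, KRT8 and CDH1. Only some are printed, KRT14, KRT19 and CDH3 were added outside this rule, and promoters were chosen as described beside them. Scripts were tested on simulated data, with Python 3.11.15, pandas 2.3.3, NumPy 2.4.6 and SciPy 1.17.1.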

Additional observations from a re-analysis of the deposited data

Results flagged for a closer look

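The position of TLE3-bearing FOXA1 peaks relative to genes pointed in opposite directions in SKBR3 and T47D. With TLE3 replicate 1 as the partner, the share of FOXA1 peaks within 1 kb of a gene end, with minus without TLE3, averaged -1.20 percentage points in SKBR3 (-1.36 and -1.04 in its FOXA1 replicates) and 5.21 in T47D (5.47 and 4.96). The difference was not tested. In MDA-MB-453 it was -2.75 and -3.01. With TLE3 replicate 2 the SKBR3 values were 13.5 and 13.9 and those of T47D 9.96 and 8.76, so the contrast between the lines rests on which SKBR3 TLE3 list is used.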

How the results depend on the processing

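Of 81 alternative values, 20 without a test stayed within the error of the main value, 45 moved and 2 reversed. The other 14 belong to permutation tests that cannot pass the threshold, so they say nothing about stability. Some further labels were fixed in advance. For the width and rank of TLE3 peaks no error was available, so any change counted as moved. The width and rank of FOXA1 peaks cannot leave their SD when 1 FOXA1 library is dropped, because that SD comes from the same libraries. Some counts of genes do not use the library left out. Causes were not tested unless the alternative itself removes peaks or libraries. Both reversals came from putting TLE3 replicate 2 in place of replicate 1: the rank of TLE3 peaks at FOXA1 went from 0.726 to 0.470, and FOXA1 sites near gene ends, with minus without TLE3, from -1.42 to 13.4 percentage points. With TLE3 replicate 1 or either FOXA1 replicate left out in turn, FOXA1 sites with TLE3 ranged from 16.6 to 22.4% and TLE3 peaks at FOXA1 from 21.7 to 95.1%. The width difference ranged from 89.5 to 412 bp (TLE3 peaks 77 to 94) and the rank probability from 0.579 to 0.877 (TLE3 peaks 0.470 to 0.727). The gene end difference ranged from -1.36 to 13.4. Coding genes near TLE3 ranged from 57.4 to 96.5% and near FOXA1 from 89.8 to 92.7%. The recurrence difference ranged from 14.5 to 20.9 points for FOXA1 and 7.01 to 36.6 for TLE3. SKBR3 TLE3 replicate 2 enters none of the main values of these measures, so leaving it out gives the main values. Of those, the gene end difference (-1.42) and the width difference of TLE3 peaks (76 bp) lie outside the ranges. The extremes of the overlap at TLE3 peaks, width, rank, gene ends, genes near TLE3 and TLE3 recurrence are the values without TLE3 replicate 1. For the number of peaks and the difference near gene ends, each library was left out in turn, TLE3 replicate 2 included. The extremes of each were the values without TLE3 replicate 1 or 2. The number ranged from -2.41 to -0.25 as log2, and the difference near gene ends from 0.440 to 9.17. With ends of coding genes the latter was 3.83 (exact permutation p = 1).

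With lists of equal length, FOXA1 sites with TLE3 came to 60.6%, TLE3 peaks at FOXA1 to 58.2%, the width differences to 216.5 and 91 bp, and the rank probabilities to 0.724 and 0.750. Centres within 250 bp gave 18.8 and 80.8%, sites of either replicate 14.8 and 95.7%, and the upper 50% by score 19.9% of FOXA1 sites. Among peaks of similar width the rank probabilities were 0.675 and 0.632, and for TLE3 peaks away from gene ends 0.753. Ends of coding genes alone gave -1.90. Genes near TLE3 and FOXA1 were 34.4 and 71.0% at 10 kb, 72.6 and 94.9% at 100 kb, 37.2 and 67.7% by nearest gene, and 38.6 and 79.6% in the upper 50%. Recurrence with sites of either replicate was 11.6 and 41.1 points. A replicate block, pairing libraries by number, left the peak number at -1.33 and the gene end difference at 4.81, with a smallest possible exact permutation p of 0.5.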
